A study of Mus musculus with 9 samples.

Results

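The data described here are the liver transcripts of 9 transporters that move drugs, bile acids, bilirubin conjugates and other organic anions through hepatocytes, out of 51912 genes in the deposited table and 21857 nuclear protein-coding genes in it. The members were chosen by gene symbol and role. They are 4 uptake carriers of the sinusoidal membrane, which faces the blood (*Slco1a1*, *Slco1a4*, *Slco1b2* and *Slco2b1*), 4 exporters of the canalicular membrane, which faces the bile (*Abcc2*, *Abcb4*, *Abcb1a* and *Abcg2*), and 1 exporter that returns its substrates to the blood (*Abcc3*). Each symbol was found once in the table, and all 9 genes were tested.

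The livers came from fasted mice of 1 genotype, *Apoe*-/-*Ndst1* f/f *Alb-Cre*+, of which 5 had received an antisense oligonucleotide (ASO) against apoC-III and 4 a control ASO by intraperitoneal injection, at 50 mg/kg/week over 8 weeks in both groups. Both groups lack apoE in the whole body and, through Cre driven by the albumin promoter, NDST1 (a sulfotransferase of heparan sulfate synthesis) in hepatocytes. No mouse with intact *Apoe* or *Ndst1* and no mouse without an oligonucleotide was compared, so all values stand on that background, and the diet, sex and age of these 9 mice were not given beside the sequencing. The sample labels give a group and a number only. With the study's n of 5 and 4, they were read as separate mice. Whole liver was sequenced, so that fewer hepatocytes and less RNA per hepatocyte cannot be told apart.

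Hepatocytes clear the blood of organic anions in a vectorial way. Carriers of the OATP family (*Slco* genes) bring statins, bile acids, thyroid hormones and conjugated bilirubin in from the sinusoid, and ATP-driven ABC transporters pump drugs, conjugates and phospholipid into the canaliculus. Transcription of these genes is known to respond to nuclear receptors such as CAR, PXR and FXR and to the oxidative stress factor NRF2.

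Of the members, 3 lie in a cluster on chromosome 6 (GRCm38): *Slco1b2* (ENSMUSG00000030236, chr6:141629518-141686646, plus strand), *Slco1a4* (ENSMUSG00000030237, chr6:141805440-141856199, minus strand) and *Slco1a1* (ENSMUSG00000041698, chr6:141907282-141946962, minus strand). The gap between *Slco1b2* and *Slco1a4* is 118793 bases and holds 1 other protein-coding gene, *Gm5724*, and the gap between *Slco1a4* and *Slco1a1* is 51082 bases and holds none. *Abcb1a* (ENSMUSG00000040584, chr5:8660077-8748575, plus strand) and *Abcb4* (ENSMUSG00000042476, chr5:8893717-8959231, plus strand) are neighbors on chromosome 5, 145141 bases apart with *Abcb1b* between them. The others stand alone: *Abcg2* (ENSMUSG00000029802, chr6:58584523-58695676, plus strand), *Slco2b1* (ENSMUSG00000030737, chr7:99657804-99711340, minus strand), *Abcc2* (ENSMUSG00000025194, chr19:43782192-43840740, plus strand) and *Abcc3* (ENSMUSG00000020865, chr11:94343295-94392997, minus strand).

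RefSeq promoter sequences (GRCm38.p6, 250 bases before to 50 after a gene's start) were matched for 8 of the 9 members, and *Abcc3* had none. The promoters below belong to the most abundant uptake and export transcripts, *Slco1b2* (chr6:141629268-141629567, plus strand) and *Abcc2* (chr19:43782058-43782357, plus strand), and to the related pair on chromosome 5 whose transcripts lay furthest apart, *Abcb4* (chr5:8893471-8893770, plus strand) and *Abcb1a* (chr5:8566841-8567140, plus strand). Capitals mark matches, on either strand, to the TATA box TATAAA, the nuclear receptor motif AGGTCA and the antioxidant response element core TGACNNNGC.
Slco1b2: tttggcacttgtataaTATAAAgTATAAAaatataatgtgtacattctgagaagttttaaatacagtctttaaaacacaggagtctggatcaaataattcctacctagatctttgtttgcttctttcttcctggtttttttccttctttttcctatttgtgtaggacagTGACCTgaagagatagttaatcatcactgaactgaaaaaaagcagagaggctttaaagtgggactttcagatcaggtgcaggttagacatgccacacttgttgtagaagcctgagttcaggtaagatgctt
Abcc2: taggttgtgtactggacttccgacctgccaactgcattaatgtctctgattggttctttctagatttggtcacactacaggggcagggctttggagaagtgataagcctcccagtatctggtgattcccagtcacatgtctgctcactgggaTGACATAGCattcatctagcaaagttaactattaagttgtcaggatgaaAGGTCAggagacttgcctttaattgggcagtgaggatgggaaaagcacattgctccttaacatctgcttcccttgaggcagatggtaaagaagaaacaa
Abcb4: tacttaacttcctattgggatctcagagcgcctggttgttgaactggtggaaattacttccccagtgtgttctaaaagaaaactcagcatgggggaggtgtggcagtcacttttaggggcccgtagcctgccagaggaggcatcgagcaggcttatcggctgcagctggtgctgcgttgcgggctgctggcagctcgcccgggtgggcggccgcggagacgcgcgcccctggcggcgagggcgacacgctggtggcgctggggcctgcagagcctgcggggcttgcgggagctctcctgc
Abcb1a: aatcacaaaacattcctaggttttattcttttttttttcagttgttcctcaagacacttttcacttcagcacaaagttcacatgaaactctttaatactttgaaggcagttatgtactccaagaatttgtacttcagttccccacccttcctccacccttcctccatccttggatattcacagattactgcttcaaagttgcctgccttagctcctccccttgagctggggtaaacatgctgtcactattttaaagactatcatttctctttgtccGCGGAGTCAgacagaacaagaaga

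The *Slco1b2* promoter is AT-rich, with 35.3% G and C against a median of 52.7% over the 32851 promoters in the table. It holds a nuclear receptor motif on the minus strand 81 to 76 bases before the start and a pair of TATA boxes far upstream. The *Abcc2* window holds a nuclear receptor motif 49 to 44 bases and an antioxidant response element core 98 to 90 bases before the RefSeq start. That start lies downstream of the GENCODE start, so both matches fall inside the gene as GENCODE annotates it. Among all promoters of this length, 13.6% hold the TATA box, 16.3% the nuclear receptor motif and 12.4% the antioxidant response element core, so each match is a common one. The *Abcb4* window, with 64% G and C, holds none of these letters. The *Abcb1a* window holds the antioxidant response element core on the minus strand after the start. RefSeq places this start far upstream of the gene as GENCODE annotates it, with the window ending at base 8567140 and the gene starting at base 8660077.

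The authors deposited TPM, a length-corrected share of each library, and sequencing depth cannot be read from it, so that no counting error is known for any liver. Between 17992 and 20928 genes per liver were above 0. Because 7SL RNA alone took 64.0 to 83.6% of TPM and nuclear protein-coding genes 1.94 to 8.64%, TPM of these protein-coding genes was rescaled to 1000000 per liver and divided by median-of-ratios factors. All levels below are on this scale ("rescaled level") unless TPM is named, and they are per transcript length. Control ASO replicate 4 stood apart, with the lowest protein-coding share, a factor of 0.496 against 0.930 to 1.44 in the other 8 livers, and the highest summed level of erythroid markers (2183 against 49.8 to 949.7 in the apoC-III ASO group, with 62.0 as the lowest control value, 5 of 8 listed genes at a mean of 1 or more). Hepatocyte markers were high in every liver, at a sum of 29216 to 60684 in the apoC-III ASO group and 40688 to 53937 in the control group over 11 of 12 listed genes. Cholangiocyte markers, of which 4 of 8 reached a mean of 1, summed to 38.4 to 82.8 and 41.4 to 127, and all 8 stellate cell markers to 125 to 150.2 and 140.2 to 264, with control ASO replicate 4 highest in both. Endothelial markers (101 to 150.0 and 119 to 156) were also highest in that liver, which had the highest hepatocyte sum among the controls, and macrophage markers were at 93.0 to 139 and 82.5 to 143. These sums rest on few genes. In control ASO replicate 4, *Spp1* (116), *Dcn* (177) and *Eng* (72.1) were the highest of all livers. *Stab2* (34.9), *Clec4g* (8.18), *Des* (0.567) and *Hnf4a* (121.5) were the lowest of all livers there, so a sum does not stand for its whole list. The part of these differences in the results below was not tested. Results of the 9 transporters that rest on control ASO replicate 4 are given with and without it. Differences of genes in the related lists are given with all livers only.

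The targeted transcript behaved as labelled. *Apoc3*, which encodes apoC-III, had a rescaled level of 450.3 ± 112 (SD, n = 5) on the apoC-III ASO and 3577 ± 493 (SD, n = 4) on the control ASO, a difference of -87.4% (two-sided exact permutation test, p = 0.0159, which is the lowest value that 5 against 4 livers allow). *Apoe* was at 36.1 ± 11.0 and 50.8 ± 19.4 and *Ndst1* at 10.1 ± 1.44 and 8.52 ± 2.73. Gene-level values cannot show whether the remaining *Apoe* and *Ndst1* transcripts carry the deletion.

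None of the 9 transporters was called different between the groups (limma-trend, with a Benjamini-Hochberg adjusted p below 0.05 over 11968 genes and more than 1.5-fold required). Over all genes tested, 0.0167% were called, namely *Apoc3* and *Anpep*, both lower on the apoC-III ASO, so a count of 0 of 9 says little by itself. The study, with DESeq2 on read counts, reported more genes past the same thresholds, so that share holds for this fit only. At an unadjusted p under 0.05 the count of transporters was also 0 of 9, against 5.57% of all genes tested. The fitted difference was below 0 for 7 transporters and above 0 for 2, where 50.1% of all genes tested were below 0. That split depended on the scaling, with 5 transporters above and 3 below 0 in TPM as deposited, 6 and 3 without median-of-ratios factors and 4 and 5 after quantile normalization. The median over all genes tested moved too, to 0.11, 0.41 and 0.0064 in that order. That of the transporters tested was 0.10, 0.23 and -0.11. The groups did not overlap for 1 of the 9, *Abcb1a*, which was lower, against 1.83% of all genes tested (0.911% lower and 0.919% higher on the apoC-III ASO). The median difference over the 9 was -0.24 on the log2 scale, against -0.0013 over all genes tested. The 4 uptake carriers had a median of -0.46, with all 4 below 0, and the 4 canalicular exporters a median of -0.17. Without control ASO replicate 4 these medians were -0.25 and -0.098. Without the factors 2 uptake carriers were above 0, with a median of 0.021 over the 4 against 0.41 over all genes tested.

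**Figure D1:**
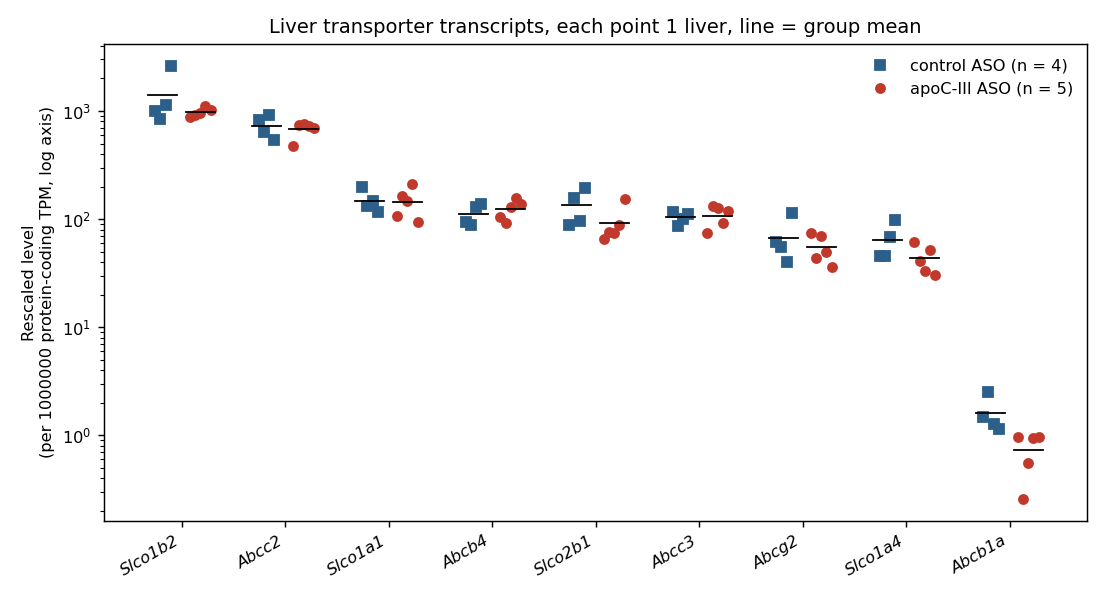
Rescaled level (per 1000000 protein-coding TPM, log axis) of the 9 transporters in every liver, with control ASO livers as squares, apoC-III ASO livers as circles and a line at each group mean. The groups overlap for every gene but *Abcb1a*, which lies near 1, and control ASO replicate 4 is the high square of *Slco1b2* at 2625.

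*Slco1b2* encodes the main OATP1B carrier of mouse liver, the counterpart of the human carriers that take up statins and bilirubin conjugates. Its rescaled level in apoC-III ASO replicates 1 to 5 was 876, 908, 953, 1100.5 and 1026. In control ASO replicates 1 to 4 it was 1003, 839, 1143 and 2625. The groups overlap, and 1 control liver, replicate 4, was over every other liver. The means were 973 ± 91.0 (SD, n = 5) and 1402 ± 824 (SD, n = 4), and the log2 difference was -0.38 (SE 0.31, 95% interval -1.06 to 0.30, limma-trend, Benjamini-Hochberg adjusted p = 0.918). Without control ASO replicate 4 the ranges were 876 to 1100 and 839 to 1143, and the difference was -0.03 (95% interval -0.48 to 0.43, limma-trend adjusted p = 0.999). With that liver left out, the interval lay within 1.5-fold in both directions.

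*Slco1a1* encodes OATP1A1, a carrier of bile acids and steroid conjugates that is known to be higher in male than in female mouse liver. The 5 apoC-III ASO livers had rescaled levels of 106, 162, 146, 212 and 94.0, and the 4 control ASO livers had 197, 132, 148 and 116. Both groups spread over the same range. The log2 difference was -0.07 (SE 0.27, 95% interval -0.67 to 0.52, limma-trend adjusted p = 0.992).

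*Slco1a4*, the neighbor of *Slco1a1*, encodes OATP1A4, which carries digoxin and bile acids and is known to be induced by PXR ligands. The rescaled levels were 61.8, 40.8, 32.8, 51.5 and 30.4 in the apoC-III ASO livers and 45.5, 45.5, 69.0 and 98.2 in the control ASO livers. The 3 lowest livers were all in the apoC-III ASO group and the 2 highest were controls, but the groups overlap. The difference was -0.53 on the log2 scale (SE 0.30, 95% interval -1.18 to 0.11, limma-trend adjusted p = 0.899), or 0.691-fold. Without control ASO replicate 4, the highest liver, it was -0.31 (95% interval -0.92 to 0.30).

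*Slco2b1* encodes OATP2B1, a carrier of sulfated steroids. Its rescaled level was 65.8, 76.6, 75.1, 87.4 and 154 in the apoC-III ASO livers and 89.1, 156, 95.9 and 195 in the control ASO livers. Every liver of the apoC-III ASO group but replicate 5 lay below the lowest control, and replicate 5 lay among the controls. The log2 difference was -0.53 (SE 0.31, 95% interval -1.21 to 0.15, limma-trend adjusted p = 0.900). Replicate 5 alone made the groups overlap. Leaving it out ends the overlap by construction (65.8 to 87.4 against 89.1 to 195) and is no support for a difference. In that fit the log2 difference was -0.74 (SE 0.28, 95% interval -1.36 to -0.12, limma-trend, Benjamini-Hochberg adjusted p = 0.850). Without control ASO replicate 4 it was -0.33 (95% interval -1.01 to 0.35). A pair of antisense genes, *Gm15635* and *Gm34280*, overlap exons of *Slco2b1*, and both were listed at no more than 0.0256 TPM, against 1.88 to 9.81 TPM for *Slco2b1*.

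*Abcc2* encodes MRP2, the canalicular pump of bilirubin glucuronides and glutathione conjugates. Livers of the apoC-III ASO group had rescaled levels of 475, 742, 758, 732 and 689.9, and those of the control ASO group had 819.9, 645, 922 and 537. Replicate 1 was below the other apoC-III ASO livers, and the groups overlap. With means of 679.6 ± 117 (SD, n = 5) and 731 ± 172 (SD, n = 4), the log2 difference was -0.09 (SE 0.24, 95% interval -0.62 to 0.43, limma-trend adjusted p = 0.988). Without apoC-III ASO replicate 1 it was 0.03 (95% interval -0.49 to 0.55).

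*Abcb4* encodes the canalicular phosphatidylcholine floppase, which supplies bile with phospholipid. Its rescaled level was 105, 92.7, 129, 158 and 137 on the apoC-III ASO and 93.6, 89.0, 129 and 138.5 on the control ASO. It was the transporter with the largest positive difference, 0.15 on the log2 scale (SE 0.23, 95% interval -0.36 to 0.65, limma-trend adjusted p = 0.966), and its groups overlap almost fully.

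*Abcb1a* encodes P-glycoprotein, a pump of lipophilic drugs known best from the blood-brain barrier and gut. Its rescaled level was 0.974, 0.257, 0.551, 0.938 and 0.962 on the apoC-III ASO and 1.47, 2.52, 1.27 and 1.15 on the control ASO. Each value of the apoC-III ASO group was under the lowest control value. The log2 difference was -0.58 on the log2(level + 1) scale (SE 0.27, 95% interval -1.17 to 0.01, limma-trend, Benjamini-Hochberg adjusted p = 0.876). At levels this low the added 1 sets the size of that value, which was -1.08 with 0.1 added instead. At a mean of 0.736 ± 0.321 (SD, n = 5) against 1.60 ± 0.626 (SD, n = 4), it passed the filter of a mean of 1 over all livers only through the control group, so its lower values are no support for a difference, and it was not tested without control ASO replicate 2. In TPM as deposited the values were at most 0.0701 in the apoC-III ASO livers and 0.0111 to 0.159 in the controls, and the groups overlapped. The value is also uncertain in identity: 28.2% of the 31-base words of its transcripts also occur in other genes and 21.7% in *Abcb1b*, its near copy, and *Gm42686* runs antisense over its exons.

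*Abcg2* encodes BCRP, a canalicular exporter of sulfated conjugates and urate. Its rescaled level was 74.9, 43.4, 70.3, 49.5 and 36.3 in the apoC-III ASO livers and 61.5, 55.7, 39.9 and 113 in the control ASO livers. Only control ASO replicate 4 lay outside the range of the apoC-III ASO group. The log2 difference was -0.24 (SE 0.32, 95% interval -0.94 to 0.45, limma-trend adjusted p = 0.959), and without that liver it was 0.04 (95% interval -0.59 to 0.66).

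*Abcc3* encodes MRP3, the basolateral pump that returns glucuronides to the blood. Its rescaled level was 73.6, 131, 125.9, 91.2 and 118 on the apoC-III ASO and 117, 86.8, 101 and 112 on the control ASO. The control range lay inside the apoC-III ASO range. The log2 difference of 0.03 was the smallest of the 9 (SE 0.22, 95% interval -0.46 to 0.52, limma-trend adjusted p = 0.998).

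**Figure D2:**
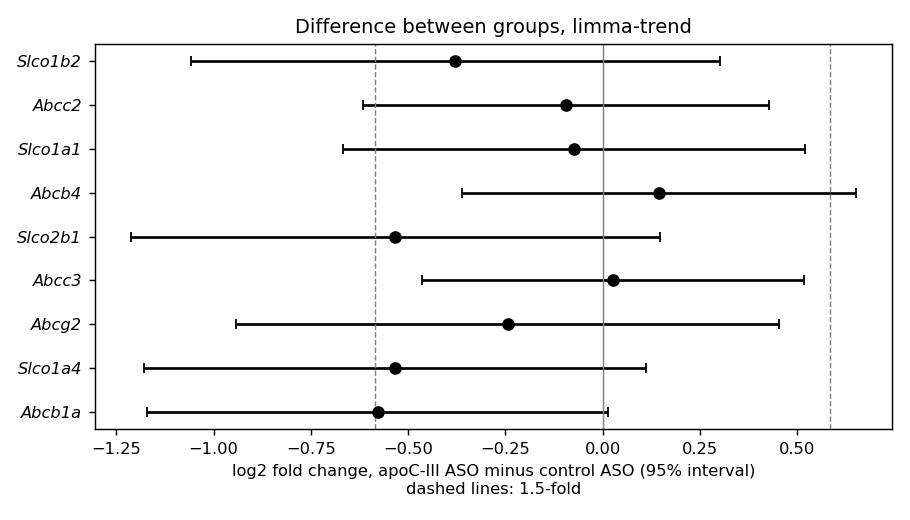
Log2 difference of each transporter, apoC-III ASO minus control ASO, from limma-trend (points) with its 95% interval (bars), in the order of mean level from *Slco1b2* down to *Abcb1a*. Dashed lines mark 1.5-fold; every interval crosses 0, and that of *Abcc3* lies inside the dashed lines.

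The intervals show what these livers could and could not resolve. For *Abcc3* the interval ran from 0.725-fold to 1.43-fold, and for *Abcc2* and *Slco1a1* it ran from 0.653 to 1.35-fold and from 0.630 to 1.43-fold. For *Slco2b1* and *Slco1a4* the intervals reached down to 0.432 and 0.442-fold. The spread over the 9 livers, as a coefficient of variation of the rescaled level, was lowest for *Abcc3* (18.2%), *Abcc2* (19.5%) and *Abcb4* (20.8%) and highest for *Slco1b2* (47.9%) and *Abcb1a* (56.9%). Without control ASO replicate 4 the spread of *Slco1b2* was 10.9%, the lowest of the 9, while *Abcb1a* remained highest at 61.0%. Control ASO replicate 4 did not move all transporters one way. It was at 2.64 times the mean of the other 3 controls for *Slco1b2*, 2.16 times for *Abcg2*, 1.84 times for *Slco1a4* and 1.72 times for *Slco2b1*, but at 0.675 times for *Abcc2* and 0.732 times for *Slco1a1*.

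The order of the 9 levels, per transcript length, was *Slco1b2*, *Abcc2*, *Slco1a1*, *Abcb4*, *Slco2b1*, *Abcc3*, *Abcg2*, *Slco1a4* and *Abcb1a*. *Slco1b2* and *Abcc2* together made up 72.4 to 80.3% of the summed level of the 9 in every liver. Neighbors in this order were compared within each liver with an exact two-sided sign-flip permutation test, with p adjusted over the 8 pairs (Benjamini-Hochberg). *Slco1b2* exceeded *Abcc2* in 9 of 9 livers, by 1.58-fold as a geometric mean (exact test, adjusted p = 0.0104). This mean includes control ASO replicate 4 at 4.89-fold, against 1.22 to 1.84-fold in the other 8 livers. Without that liver *Slco1b2* was higher in 8 of 8 (exact test, adjusted p = 0.0208). *Abcc2* exceeded *Slco1a1* by 4.89-fold in 9 of 9 (exact test, adjusted p = 0.0104). The next 3 neighbor pairs did not separate, and genes further apart in the order were not compared: *Slco1a1* to *Abcb4* (1.21-fold, adjusted p = 0.238), *Abcb4* to *Slco2b1* (1.13-fold, adjusted p = 0.420) and *Slco2b1* to *Abcc3* (0.986-fold, adjusted p = 0.891) all missed the threshold of the exact test. *Abcc3* was above *Abcg2* by 1.84-fold in 7 of 9 livers (exact test, adjusted p = 0.0313). That call was lost without any one of apoC-III ASO replicates 2, 3, 4 and 5 or control ASO replicate 1 (exact test, adjusted p = 0.0625) and without control ASO replicate 3 (exact test, adjusted p = 0.050), and without control ASO replicate 2 or 4 *Slco2b1* stood next to *Abcg2* instead. *Abcg2* and *Slco1a4* did not separate (1.15-fold, exact test, adjusted p = 0.380), except without control ASO replicate 3 (exact test, adjusted p = 0.0313). *Abcb1a* was far below all others, 51.8-fold under *Slco1a4* in 9 of 9 livers (exact test, adjusted p = 0.0104).

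The chromosomal neighbors thus stood at unlike levels: *Abcb1a* ranged from 0.257 to 2.52 over all livers, *Abcb1b* ranged from 1.06 to 3.43 on the apoC-III ASO and 1.73 to 5.83 on the control ASO, and *Abcb4*, in the same cluster, was at 89.0 to 158 over all livers. In the chromosome 6 cluster *Slco1b2* was highest and *Slco1a4* lowest of the 3 members. *Slco1a6* ranged from 2.50 to 19.7 and from 5.86 to 19.0 in the apoC-III ASO and control ASO groups. *Slco1a5* was listed at 0 in all 9 livers, and 3.40% of the 31-base words of *Slco1a4* also occur in it. Shared words were few for the other members, from 0 for *Slco1b2* and *Abcc3* to 7.19% for *Slco2b1*, most of them with its antisense gene *Gm15635*.

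Ratios of 2 transporters in the same liver do not depend on how a liver is scaled, and 4 were compared (exact two-sided permutation tests, adjusted over the 4). The ratio of *Abcb4* to *Abcb1a*, the phospholipid floppase to P-glycoprotein, was 108, 360.5, 234, 169 and 143 in the apoC-III ASO livers and 63.9, 35.3, 102 and 120.0 in the control ASO livers. It was higher on the apoC-III ASO by 1.36 on the log2 scale, with 1 control liver inside the range of the other group (exact permutation test, p = 0.0317, adjusted p = 0.127). The adjusted value missed the threshold of 0.05, and with 1 added to both rescaled levels the difference was 0.72 (exact permutation test, adjusted p = 0.190). Its denominator is the low and partly shared *Abcb1a* signal, which passed the filter only through the control group. The ratio restates those values and is no separate support for a difference.

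The ratio of *Slco1a1* to *Slco1a4* was 1.72 to 4.44 on the apoC-III ASO and 1.18 to 4.32 on the control ASO, a log2 difference of 0.47 (exact permutation test, p = 0.317, adjusted p = 0.635), which was 0.14 without control ASO replicate 4. The ratio of canalicular *Abcc2* to basolateral *Abcc3* was 5.66 to 8.03 and 4.80 to 9.15, a log2 difference of -0.12 (exact permutation test, p = 0.556, adjusted p = 0.741), which was -0.30 without control ASO replicate 4 and 0.014 without control ASO replicate 3. The ratio of uptake carrier *Slco1b2* to exporter *Abcc2* was 1.84, 1.22, 1.26, 1.503 and 1.49 in the apoC-III ASO livers and 1.22, 1.30, 1.24 and 4.89 in the control ASO livers. Here 3 controls sat at the low end of the apoC-III ASO range and control ASO replicate 4 far above it. The log2 difference was -0.28 (exact permutation test, p and adjusted p = 0.809) and turned to 0.21 without control ASO replicate 4 and, as a difference of medians over all livers, to 0.23.

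**Figure D3:**
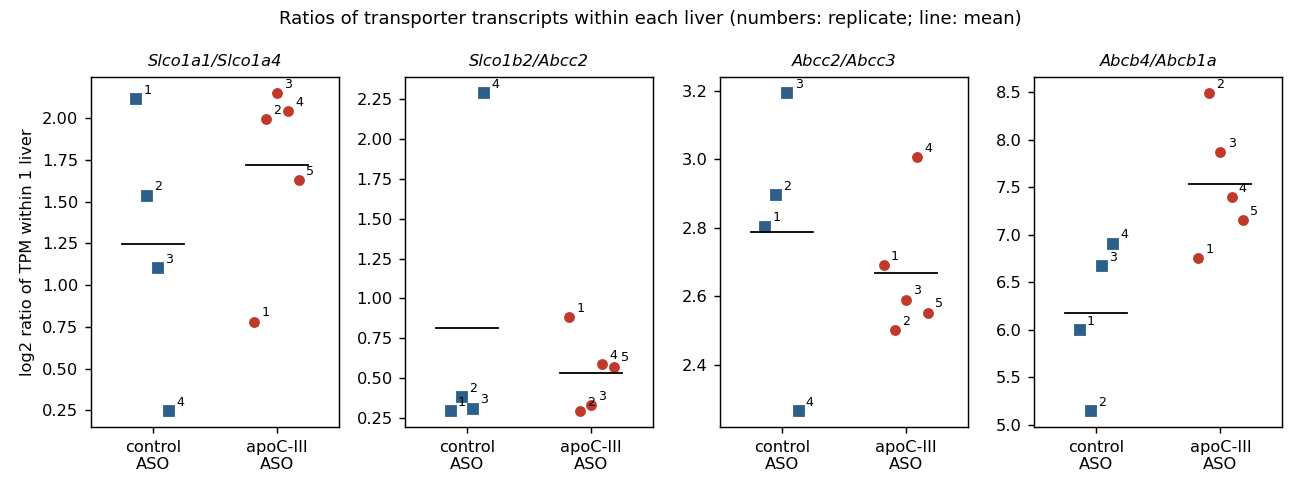
Log2 ratio of the TPM of 2 transporters within each liver, in 4 panels with separate axes, with control ASO livers as squares, apoC-III ASO livers as circles, replicate numbers beside the points and a line at each group mean. *Abcb4*/*Abcb1a*, which rests on the low *Abcb1a* signal, was higher in the apoC-III ASO group with 1 control among them. Control ASO replicate 4 lay alone at 2.29 for *Slco1b2*/*Abcc2*.

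Other transporters of the same cells were compared from lists. Of 23 other SLC carriers 16 were tested and none was called, 0 of 16 higher and 1 of 16 lower at an unadjusted p under 0.05, against 3% and 2.57% of all genes tested. That one was *Slc22a3*, a carrier of organic cations, at 0.175 to 0.863 on the apoC-III ASO and 0.673 to 4.25 on the control ASO (log2 difference -1.07, SE 0.34, limma-trend adjusted p = 0.860), and it passed the filter on low values only through the control group. *Slc22a18* was at 50.2 to 67.9 and 69.1 to 77.3, with no overlap (log2 difference -0.36, limma-trend adjusted p = 0.883). *Slc10a1*, which encodes NTCP, the sodium-dependent bile acid carrier, was at 234 to 435 and 337 to 631 (log2 difference -0.48, limma-trend adjusted p = 0.899). The median of the 16 was -0.20. Of 14 other ABC transporters and canalicular ATPases 13 were tested, none passed an unadjusted p of 0.05 and the median was 0.12. The 3 with the smallest p were *Abca1*, the cholesterol exporter (58.9 ± 11.3 against 74.3 ± 12.9), *Abcc1* (3.04 ± 1.09 against 1.90 ± 1.26) and *Abcc10* (18.2 ± 5.53 against 13.4 ± 3.01). In control ASO replicate 4, *Slc22a3* (4.25) and *Slc10a1* (631) were the highest of all livers and *Abcc1* (0.178) the lowest.

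Of 19 nuclear receptors and transcription factors known to control such transporters, all were tested and none was called. At an unadjusted limma-trend p under 0.05, 1 of 19 was higher and 1 of 19 lower, against 3% and 2.57% of all genes tested. *Stat5b*, which relays growth hormone, was higher at an unadjusted p under 0.05 (22.3 ± 7.66 against 12.6 ± 5.15, log2 difference 0.81, SE 0.31, limma-trend adjusted p = 0.871). *Esr1*, the estrogen receptor, was lower at that threshold (4.10 ± 0.963 against 11.6 ± 8.38, log2 difference -1.08, SE 0.40, limma-trend adjusted p = 0.860). The lowest *Stat5b* of all livers was in control ASO replicate 4 (7.24), and the highest *Esr1* in control ASO replicate 2 (22.7). *Nr1i3*, which encodes CAR, was at 179 ± 39.2 and 250.5 ± 74.5 (log2 difference -0.46, limma-trend adjusted p = 0.895). Among 11 scaffold and anchor proteins that hold transporters in the canalicular membrane, none was called. Here 1 of 11 was higher and 1 of 11 lower at that unadjusted threshold, against the same 3% and 2.57%. *Slc9a3r1* (31.4 ± 13.3 against 47.2 ± 8.29, log2 difference -0.64, limma-trend adjusted p = 0.876) and *Myo5b*, a motor of vesicle recycling (47.7 ± 10.6 against 32.0 ± 12.5, log2 difference 0.60, limma-trend adjusted p = 0.876), passed the unadjusted threshold in opposite directions. The third, *Stx3*, was at 4.23 ± 2.83 and 6.48 ± 4.12.

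Other target genes of the receptors behaved unevenly. Of 10 CAR and PXR targets, none was called, 8 were below 0 and the median was -0.39. At an unadjusted limma-trend p under 0.05, 1 of 10 was higher and 1 of 10 lower, against 3% and 2.57% of all genes tested. *Gsta1*, a glutathione transferase, was at 6.28 to 26.2 on the apoC-III ASO and 0 to 2.55 on the control ASO, with no overlap (log2 difference 3.09 on the log2(level + 1) scale, SE 0.49, limma-trend adjusted p = 0.177), and its reads can be shared with closely similar transferases. *Cyp2c29* was at 569 to 695 and 1150.1 to 2156, with no overlap (log2 difference -1.07, SE 0.23, limma-trend adjusted p = 0.650), and belongs to a family of near copies. *Cyp3a25* was at 1096 ± 686 and 1677 ± 451. Of 10 NRF2 targets 9 were tested, and none passed the unadjusted threshold. The difference was above 0 for 7 of the 9, where 50.1% of all genes tested were below 0. The median of the 9 was 0.068, against -0.0013 over all genes tested. *Nqo1* was at 3.19 ± 0.213 and 2.03 ± 1.44, *Gclc* at 142 ± 80.2 and 88.5 ± 17.6 and *Ugdh* at 131 ± 27.2 and 112 ± 23.8. The highest control value of *Nqo1* (4.18) lay above every apoC-III ASO liver (2.83 to 3.35). Of 5 AHR targets only *Cyp1a2* (409 ± 98.0 against 531 ± 82.6) and *Tiparp* (2.71 ± 1.21 against 3.33 ± 0.833) could be tested, and neither passed. Every ± value here is an SD with n = 5 and n = 4.

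**Figure D4:**
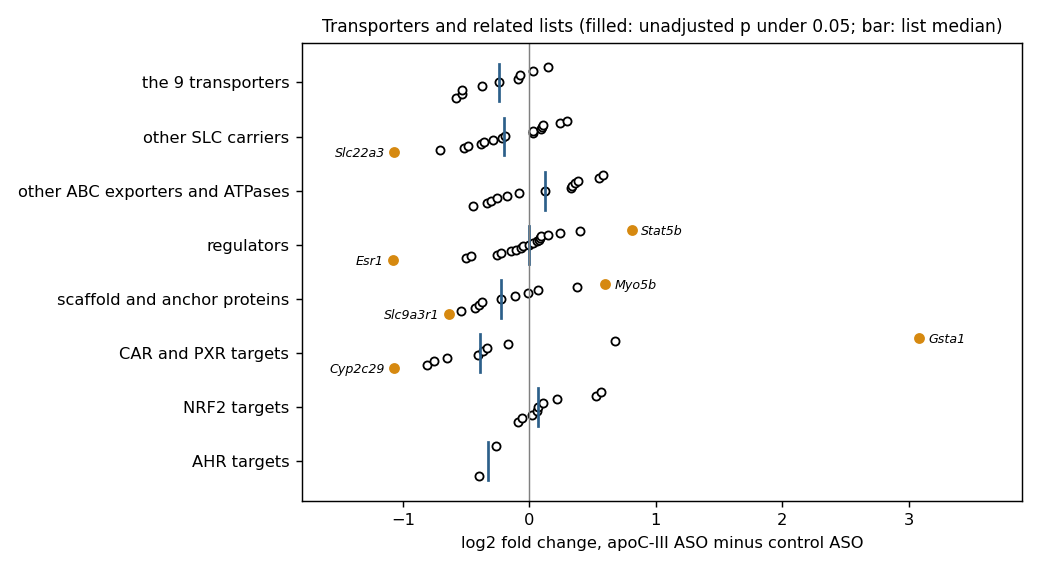
Log2 difference, apoC-III ASO minus control ASO, of each tested gene in the transporter set and in 7 related lists, 1 point per gene and a bar at each list's median. Filled points, which carry names, have an unadjusted limma-trend p under 0.05; none of the 9 transporters is filled, and *Gsta1* lies furthest out at 3.09.

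For each transporter the 3 tested genes whose log2 levels followed it most closely over the 9 livers were noted as a description. The points share their scaling, and the search ran over 11968 genes, so no p is given. *Slco1a1* was followed by *Aldh5a1* (Pearson r = 0.944, Spearman rho = 0.917), *Fahd1* and *Gjb1*, *Slco1a4* by *Fkbp3* (r = 0.975, rho = 0.950), *Plin2* and *Morc4*, and *Slco2b1* by *Ahcy* (r = 0.955, rho = 0.917), *G0s2* and *Nebl*. *Abcc2* was followed by *Iqgap2* (r = 0.938, rho = 0.833), *Svip* and *Insr*, *Abcb4* by *Comtd1* (r = 0.969, rho = 0.983), *Khdrbs3* and *Atp6v1e1*, and *Abcb1a* by *Idh3b* (r = 0.921, rho = 0.800), *Atp5b* and *Akap13*. *Abcg2* was followed by *B9d1* (r = 0.970, rho = 0.949), *Emc1* and *Nek2*, and *Abcc3* by *Filip1* (r = 0.952, rho = 0.967), *Rprd2* and *Fuca1*. The genes nearest to *Slco1b2* were *Syap1* (r = 0.966, rho = 0.850), *Olfr624* (r = 0.966, rho = 0.700) and *Slc25a4* (r = 0.966, rho = 0.667). Without the 2 livers furthest from the median of *Slco1b2*, control ASO replicates 2 and 4, these 3 values of r were 0.820, 0.447 and 0.566, so those of *Olfr624* and *Slc25a4* rest on these livers. For the other 8 transporters, r without their own 2 furthest livers stayed between 0.654 (*Akap13* with *Abcb1a*) and 0.961 (*G0s2* with *Slco2b1*). The correlations of *Abcb1a* rest on its low and partly shared signal.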

How the data were processed

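Total RNA of 9 livers had been depleted of ribosomal RNA and sequenced as stranded single-end libraries. The authors deposited TPM per gene. The submitters' processing notes name kallisto 0.43.1 and GRCm38, whereas the methods of the study name STAR, featureCounts and DESeq2, whose counts were not used here. Ensembl identifiers were looked up in GENCODE M21 (51719 of 51912, 99.6%).

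TPM of the 21857 nuclear protein-coding genes was rescaled to 1000000 per liver and divided by median-of-ratios factors computed from these genes. Genes with a mean of at least 1 (11968) were tested on log2(level + 1) with limma 3.58.1 (lmFit, eBayes with trend, R 4.3.3), without covariates, and calls needed both an adjusted p (Benjamini-Hochberg) below 0.05 and more than 1.5-fold. A fold change on this scale understates the change of low genes. These steps were also tested on simulated data with known changes. Ratios and the order of levels were tested with exact permutation tests (scipy 1.17.1 with numpy 2.4.6 and pandas 2.3.3 in Python 3.11.15), and figures were drawn with matplotlib 3.10.9. Alternatives varied scaling, pseudocount, filter, variance model, replicate block and the livers included.

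The members and lists were chosen with earlier results of these data known. Genes named are the members, *Apoc3*, *Apoe*, *Ndst1*, *Slco1a5*, *Slco1a6*, *Abcb1b*, the 3 genes of smallest unadjusted p in each related list and the 3 most correlated with each member. *Anpep*, *Gm5724*, *Gm15635*, *Gm34280* and *Gm42686* lie outside that rule and were named after their values or positions were seen. 1 regulator and its motif are not reported here. P-values measure the spread between the livers of this cohort, in which the spread of mice and that of libraries cannot be told apart.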

Additional observations from a re-analysis of the deposited data

Results flagged for a closer look

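Samples that stood apart from their group were sought in 28 groups of values, and chance alone flags about 1 group in 20. For *Slco1b2*, control ASO replicate 4 was the highest control liver at a rescaled level of 2625 against 839 to 1143 in the other 3, and the gap made up 0.8301 of the range (critical value 0.829). The log2 ratio of *Slco1b2* to *Abcc2* set the same liver apart at 2.29 against 0.29 to 0.38, a gap of 0.956 of the range. That liver also had the lowest share of TPM in nuclear protein-coding genes (1.94%) and the highest summed erythroid marker level (2183), whose part in these values was not tested. For *Slco2b1*, apoC-III ASO replicate 5 was highest at 154 against 65.8 to 87.4 (gap 0.756 of the range, critical value 0.710). For *Abcc2*, apoC-III ASO replicate 1 was lowest at 475 against 689.9 to 758 (gap 0.759 of the range).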

How the results depend on the processing

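None of the transporters tested was called under any of 23 alternatives for threshold, scaling, pseudocount, filter, variance model, block or livers. *Abcb1a* was not tested in TPM as deposited, with median-of-ratios factors over all genes, at a mean of at least 5 or without control ASO replicate 2. The log2 differences of *Slco1a4*, *Slco2b1* and *Abcb4* kept their sign in all these fits and that of *Abcb1a* in those that held it. Those of the others changed sign under some settings, each with an adjusted p over 0.5. Median-of-ratios factors divide all genes of a liver by the same number, so leaving them out moves all genes of that liver in the same direction. The cause under the other settings was not tested. With TPM as deposited the values were 0.14 for *Slco1a1*, 0.20 for *Abcc2* and 0.060 for *Abcg2*. Without median-of-ratios factors they were 0.40 for *Slco1a1*, 0.10 for *Slco1b2*, 0.38 for *Abcc2* and 0.23 for *Abcg2*. In the same settings *Abcb4* and *Abcc3* kept their sign but moved. *Abcb4* was 0.35 and 0.62, against 0.15 in the main fit, and *Abcc3* was 0.23 and 0.50, against 0.026. Under these settings the median of all genes tested was 0.11 and 0.41 and that of the transporters tested 0.10 and 0.23. Quantile normalization gave 0.025 for *Slco1a1* and 0.15 for *Abcc2*, and array weights gave 0.025 for *Abcg2*.

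When single livers were left out, the log2 difference ranged from -0.23 to 0.070 for *Slco1a1*, -0.67 to -0.31 for *Slco1a4*, -0.57 to -0.026 for *Slco1b2*, -0.74 to -0.33 for *Slco2b1*, -0.23 to 0.030 for *Abcc2*, 0.042 to 0.25 for *Abcb4*, -0.66 to -0.47 for *Abcb1a*, -0.46 to 0.036 for *Abcg2* and -0.058 to 0.15 for *Abcc3*. The decrease of *Apoc3* ranged from -88.6 to -86.5%. The log2 ratios ranged from -0.46 to 0.21 for *Slco1b2*/*Abcc2*, -0.30 to 0.014 for *Abcc2*/*Abcc3*, 0.14 to 0.76 for *Slco1a1*/*Slco1a4* and 1.01 to 1.60 for *Abcb4*/*Abcb1a*, and the neighbor pairs that separated in the order of levels numbered 3 or 4, of which *Slco1b2* over *Abcc2*, *Abcc2* over *Slco1a1* and *Slco1a4* over *Abcb1a* separated each time and the fourth pair varied.

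The deviations of livers with the same replicate number correlated at r = 0.067, 0.119, 0.028 and 0.190 over genes, not over 0.1 in every pair, and not every liver correlated best with its own number, so the numbers were not taken to pair the livers. A fit with the replicate block, which leaves apoC-III ASO replicate 5 without a partner, gave 0.063 for *Slco1a1*, -0.013 for *Abcc3* and -0.74 for *Slco2b1*, and called 3 genes in all, none of them a transporter. Over its alternatives the adjusted limma-trend p of *Abcb1a* ran from 0.540 to 0.999. TPM keeps no depth, which limits what can be said of low transcripts such as *Abcb1a*.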
